A study of Homo sapiens with 32 samples.

Results

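The genes described here are 34 of the 18980 coding genes listed for RH4 cells, an established line of human alveolar rhabdomyosarcoma. They were chosen because their RNA was higher than in the DMSO library 2 h after dCBP or IHK-44 and no longer clearly higher at 6 h. Levels are in CPM, counts scaled to an equal total over the coding genes, and a ratio is a difference on the log2(CPM + 1) scale from the DMSO library at that time unless another library is named. A gene was included with a mean of at least 2 CPM over the 20 RNA-seq libraries, a mean ratio of at least 0.6 in the 4 dCBP and IHK-44 libraries of 2 h with each above 0.3, and a mean ratio under 0.3 in the 4 of 6 h. Of 11497 genes with a mean of at least 2 CPM, 461 (4.01%) met the conditions for 2 h and 52 (0.452%) met those for both times. Among these 52, 17 ZNF genes and 1 histone gene, H4C12, were left out by name. The values that chose the 34 genes are given as a description, with no test.

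The study asks how RH4 cells respond to compounds directed at the acetyltransferases CBP and p300. The 4 compounds were JQAD, IHK-44, A485 and dCBP, and each was given at 100 nM and at 1000 nM, with RNA taken after 2 h and after 6 h. Controls at both times were DMSO, the solvent, and NT, an abbreviation with no explanation in the labels. Each condition had 1 library, so a single library has no replicate check. A485 is a catalytic inhibitor of both enzymes, and the series describes its compounds as a mix of inhibitors and degraders.

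CBP and p300 are large coactivators that acetylate histones at enhancers and promoters and are recruited by many transcription factors. In skeletal muscle lineages and in fusion-positive rhabdomyosarcoma they act with MYOD1 and PAX3-FOXO1 at enhancers. Loss of their activity mostly lowers the RNA of genes near strong enhancers. RNA that goes up for a short time after such a treatment can come from many kinds of genes, and a steady-state level does not separate new transcription from a slower decay of RNA.

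The libraries held between 13466631 and 16799327 expected counts over the coding genes. Of 15 markers of skeletal myogenic and fusion-positive rhabdomyosarcoma cells, 14 had a mean of at least 1 FPKM (a level per length), and MYF5 was between 0 and 0.05 FPKM. None of the 6 epithelial, 7 blood or 5 endothelial markers reached that mean, EPCAM and HBB were at 0 in every library, and 2 of 7 fibroblast markers reached it. The summed fibroblast level ran from 5.59 to 7.85 FPKM at 2 h and from 2.93 to 6.48 FPKM at 6 h, and its part in the results was not tested.

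The 34 genes were unlike each other in function, and most were low in the DMSO library of 2 h, the reference of the rule. Their median ratio at 2 h was 0.70, beside 0.06 for all 11497 genes, and at 6 h it was 0.18, beside 0.19. In bulk RNA, a change in the cells that carry an RNA and a change in RNA per cell cannot be told apart. NT at 2 h had a median ratio to DMSO of 0.39 over the 34 genes, beside 0.00 over all genes. It exceeded DMSO by more than 0.3 in 22 of the 34, against 7.44% of all genes, and by any amount in 31 of 34, against 50.4%. DMSO was the lowest of the 10 libraries of 2 h for 22 of the 34 genes, against 10.6% of all genes, and of the 6 not treated with dCBP or IHK-44 also for 22 (14.2%). Both A485 libraries of 2 h exceeded DMSO by more than 0.3 in 26 (8.54% of all genes) and both JQAD libraries in 12 (1.37%). Since the rule measures from this DMSO library, it favours genes that are low in it, and nothing is read from these shares about a response.

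**Figure D1:**
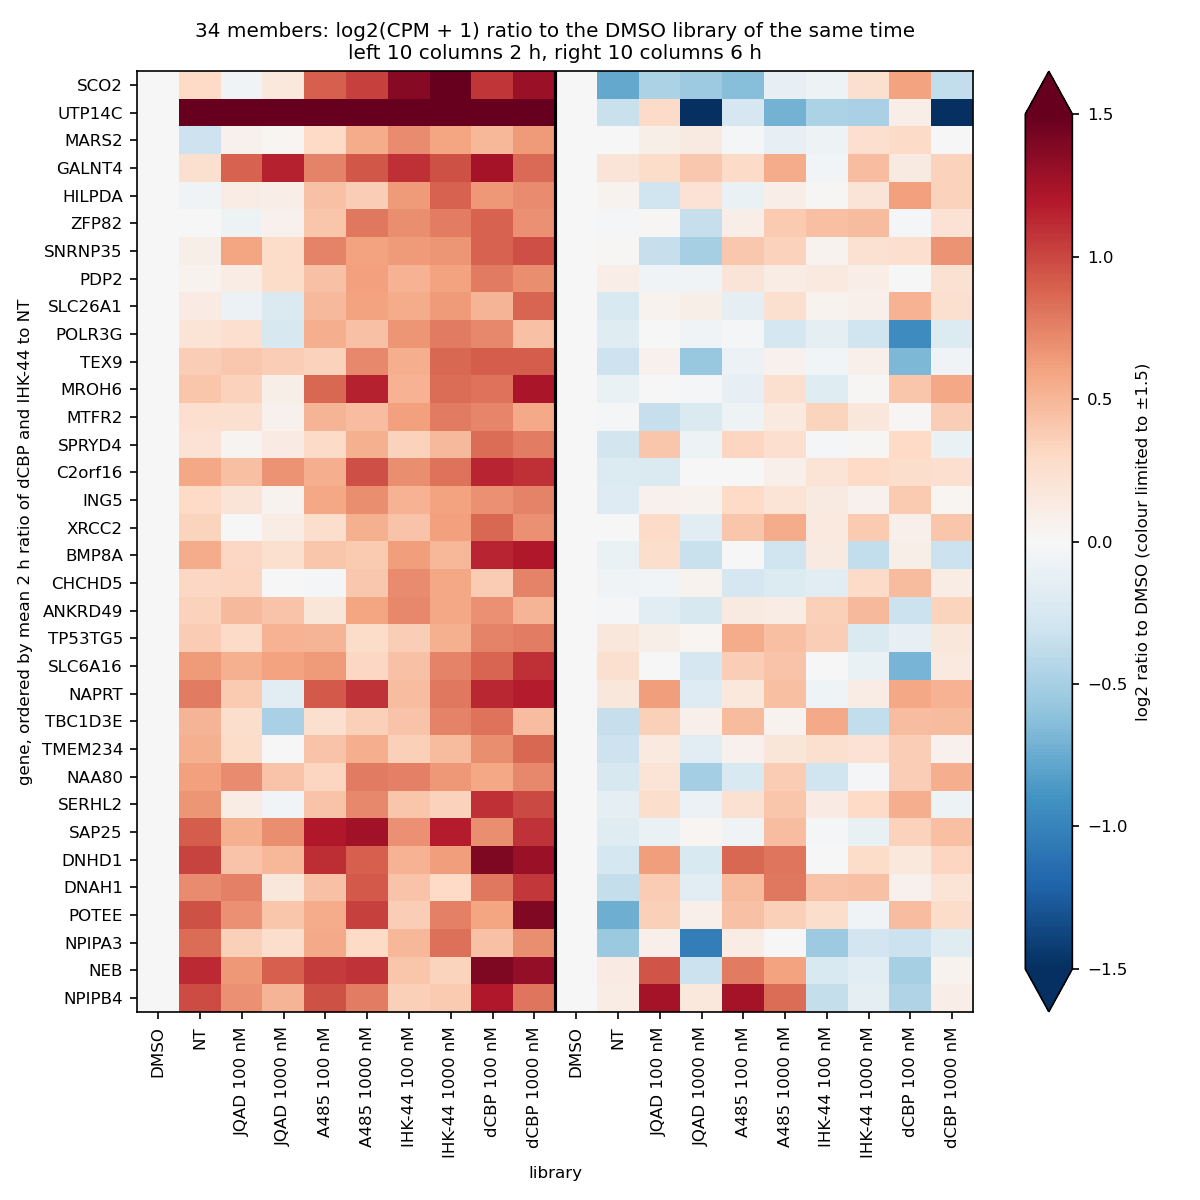
Log2(CPM + 1) ratio of each of the 34 genes (rows) to DMSO at that time in each of the 20 libraries (columns), 2 h on the left and 6 h on the right. The DMSO columns are 0 by construction, and the NT column of 2 h is above 0 in 31 of 34 rows. In the rows at the bottom, such as NEB and NPIPB4, NT at 2 h is above the mean of dCBP and IHK-44, with IHK-44 lower than NT.

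The 2 DMSO libraries differed for these genes as well. DMSO at 2 h was below DMSO at 6 h in 32 of 34, against 52.1% of all genes, and by more than 0.3 in 18, against 8.28%. NT went the other way, with a median difference between 2 h and 6 h of 0.28, beside −0.31 for DMSO, and was higher at 2 h by more than 0.3 in 17 of the 34 (10.3% of all genes). At 6 h NT exceeded DMSO by more than 0.3 in 0 of the 34 genes, against 2.62% of all genes. NT was below DMSO by more than 0.3 at 6 h in 8 (2.94% of all genes), SCO2 with −0.77 and POTEE with −0.74 at the lowest, so the controls differed at 6 h too, in the other direction. Both DMSO libraries are references of the rule, which favours a low DMSO value at 2 h and a high one at 6 h, and nothing is read from the shares that involve them.

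Measured from NT, the excess at 2 h was smaller and its sign varied between genes. The mean ratio of the 4 dCBP and IHK-44 libraries to NT had a median of 0.32 over the 34 genes, beside 0.06 for all genes, and ran from −0.30 to 1.03, with 28 of the 34 above 0 (60.3% of all genes). All 4 libraries exceeded NT by more than 0.3 in 10 of the 34 (6.54% of all genes), and with a mean of at least 0.6 in 7 (2.54%). These 10 were GALNT4, HILPDA, MARS2, MTFR2, PDP2, SCO2, SLC26A1, SNRNP35, UTP14C and ZFP82. For DNAH1, DNHD1, NEB, NPIPA3, NPIPB4 and POTEE the mean was below NT. Summed with a gene it overlaps, GALNT4 had a mean ratio to NT of 0.10 and UTP14C of −0.08. Such sums gave 0.80 for SCO2 with TYMP and 0.37 for SLC26A1 with IDUA. The treated libraries are those that chose the genes, so these counts describe the set. On TPM, which the authors scaled over all quantified genes, the direction turned, to a median of −0.12 over the 34 genes beside −0.38 over all genes. At 2 h coding genes held 43.3% of TPM in NT, 44.5% in DMSO and 32.3% to 35.1% in the 4 treated libraries. The mean 2 h ratio to DMSO on TPM was 0.12 for MARS2, 0.22 for SNRNP35 and 0.26 for HILPDA. It was 0.35 for GALNT4 and 1.29 for UTP14C, beside a median of −0.39 for all genes. The size of the excess thus depends on the scaling.

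**Figure D2:**
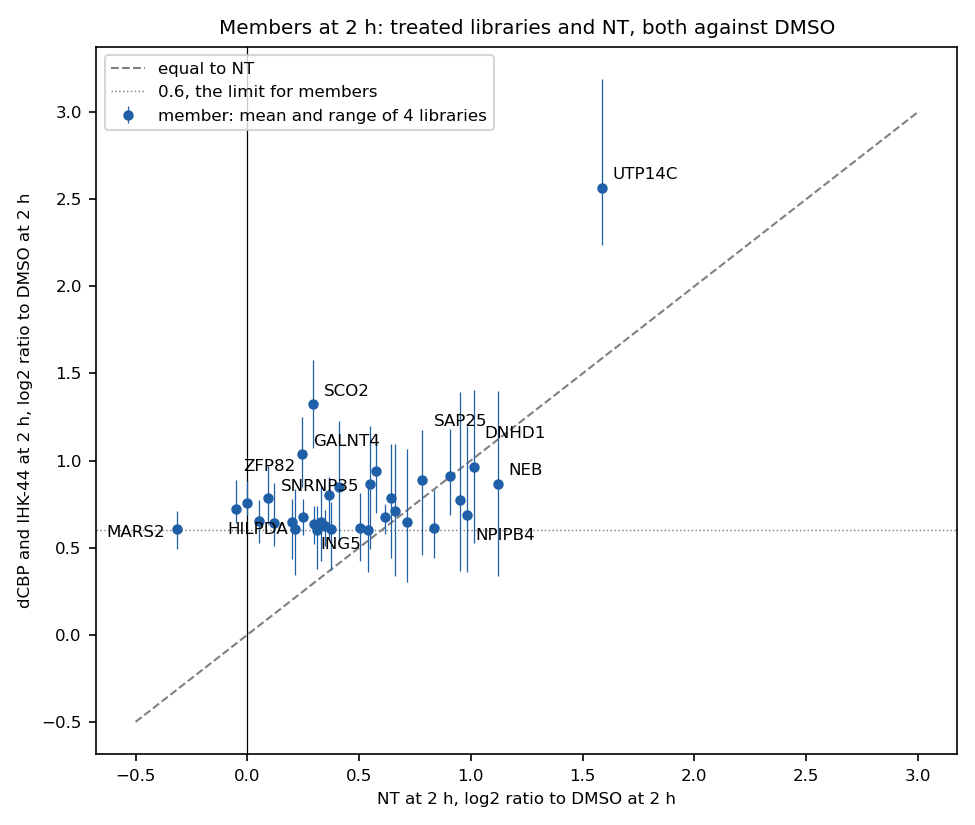
Each point is 1 of the 34 genes, with the log2 ratio of NT to DMSO at 2 h on the horizontal axis and the mean ratio of the 4 dCBP and IHK-44 libraries of 2 h on the vertical axis. Vertical bars span the 4 libraries, not an error, and the 6 genes whose mean lies under the dashed line of equality include NEB and NPIPB4.

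Applying the same conditions with NT in place of DMSO gave 17 genes. They shared 5 with the 34, which is 14.7% of the 34 and 29.4% of the 17, and the 5 were GALNT4, HILPDA, MARS2, SNRNP35 and UTP14C. Membership of most of the set thus rested on which library was the control. With the mean of DMSO and NT as the control, 13 genes met the conditions and 9 of them were among the 34. Leaving out the 100 nM IHK-44 library of 2 h gave 53 genes, 31 of them among the 34.

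Products of 5 of the genes work in mitochondria, and their median ratio of dCBP and IHK-44 to NT was 0.60. The role groups were formed after the values were seen and their medians are not compared. MARS2, the mitochondrial methionyl-tRNA synthetase that charges the tRNA for protein synthesis inside the organelle, stood at 25.9 CPM in DMSO and 20.7 CPM in NT at 2 h. In dCBP it stood at 36.9 and 41.0 CPM (100 and 1000 nM), and in IHK-44 at 43.1 and 39.5 CPM. At 6 h those 4 libraries lay between 22.9 and 29.5 CPM, beside 24.1 in DMSO and 23.9 in NT. The 4 treated libraries of 2 h were thus above every control and above their own 6 h values. The span of MARS2 on the chromosome, 3027 bases, equals its listed transcript length.

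SCO2, a copper chaperone needed to assemble cytochrome c oxidase, was measured at 3.25 CPM in DMSO and 4.22 CPM in NT at 2 h. The values were 7.93 and 9.39 CPM in dCBP and 9.95 and 11.7 CPM in IHK-44, which made it the only one of the 34 with both IHK-44 libraries above both dCBP libraries. Its 6 h values overlapped the controls, with 8.42 CPM in DMSO, 4.51 CPM in NT and 6.32 to 13.3 CPM in the 4 treated libraries. SCO2 overlaps TYMP and NCAPH2. TYMP had a mean of 1.40 CPM and a 2 h ratio of 0.64, and SCO2 and TYMP summed had a ratio of 1.32. NCAPH2 had a far higher mean, 92.4 CPM beside 7.12 for SCO2, and a 2 h ratio of 0.09. It is not in that sum, and the part of this overlap in the level of SCO2 was not tested.

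PDP2, a phosphatase that switches on the pyruvate dehydrogenase complex, had 18.4 CPM in DMSO and 19.1 CPM in NT at 2 h. It had 32.2 and 30.5 CPM in dCBP and 26.9 and 28.4 CPM in IHK-44. In the 6 h libraries it lay between 26.3 and 32.1 CPM throughout, DMSO (27.3) and NT (29.3) included, so the lower ratio at 6 h came with higher controls and not with lower treated levels. MTFR2, a mitochondrial fission regulator, was at 13.4 CPM in DMSO, 16.2 CPM in NT and 20.5 to 23.8 CPM in the 4 treated libraries. Its 6 h values were 17.7 CPM in DMSO, 17.3 CPM in NT and 17.9 to 23.2 CPM in the 4, so its controls were higher at 6 h too. CHCHD5, a small protein with the cysteine motif of intermembrane space proteins, lay just inside the limit with a ratio of 0.60, at 6.24 CPM in DMSO, 7.99 in NT and 8.39 to 11.1 CPM in the 4.

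Among the 6 genes for chromatin, RNA polymerase, repair or splicing, ING5 was the most abundant. ING5 carries a PHD finger that reads methylated histone H3 and is a subunit of MYST-type histone acetyltransferase complexes. Its level at 2 h was 53.7 CPM in DMSO and 66.3 CPM in NT, against 87.3 and 90.3 CPM in dCBP and 77.6 and 81.8 CPM in IHK-44. The 4 libraries lay above both controls, but the ratio to NT, 0.34 on average, was close to that of NT to DMSO, 0.30. At 6 h the 4 lay between 56.9 and 73.8 CPM, beside 55.8 in DMSO and 48.8 in NT.

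ZFP82, a KRAB zinc finger protein of the type that recruits repressors to DNA, had equal controls of 15.2 CPM in DMSO and in NT at 2 h. The 4 treated libraries had 28.8 and 25.1 CPM (dCBP) and 25.3 and 26.5 CPM (IHK-44). At 6 h dCBP had 18.7 and 22.3 CPM and IHK-44 had 26.4 and 26.8 CPM, beside 19.1 in DMSO and 18.7 in NT. The levels in IHK-44 thus did not fall, and its smaller ratio at 6 h came with higher controls. ZFP82 belongs to the same large family as the 17 ZNF genes left out by name. Their median ratios at 2 h were 0.23 for NT to DMSO and 0.54 for dCBP and IHK-44 to NT. SNRNP35, a protein of the U11/U12 particle of the minor spliceosome, was at 3.24 CPM in DMSO, 3.53 CPM in NT and 5.60 to 7.32 CPM in the 4. It lay just under the 6 h limit, with a mean ratio of 0.30, and overlaps RILPL1, whose own 2 h ratio was 0.41.

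The other 3 of this group act in repair, transcription by RNA polymerase III and repression. XRCC2, a DNA repair protein of homologous recombination, stood at 29.0 CPM in DMSO, 36.7 CPM in NT and 39.2 to 53.5 CPM in the 4 treated libraries of 2 h. POLR3G, a subunit of RNA polymerase III found in dividing and stem-like cells, was at 3.18, 3.81 and 4.66 to 6.16 CPM in the same order. POLR3G overlaps MBLAC2, which had a mean of 15.2 CPM and a 2 h ratio of 0.30. SAP25, a subunit of the SIN3 corepressor, was at 2.16 CPM in DMSO and 4.93 CPM in NT, and its 4 treated libraries spanned NT at 4.08 to 6.16 CPM.

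NEB had the highest mean FPKM of the set, 23.3, and NT exceeded its mean over dCBP and IHK-44 at 2 h. It encodes nebulin, the giant ruler protein of the thin filament of the muscle sarcomere. At 2 h it had 360 CPM in DMSO and 784 CPM in NT. dCBP gave 952 and 897 CPM at 100 and 1000 nM, IHK-44 gave 480 and 455 CPM, A485 gave 747 and 767 CPM and JQAD gave 568 and 673 CPM. NT thus lay between dCBP and IHK-44, and the 2 doses of each compound lay closer to each other than DMSO lay to NT. At 6 h the highest library was 100 nM JQAD, with 954 CPM, and 1000 nM JQAD had 395 CPM. NEB overlaps RIF1 on the opposite strand, which had a mean of 321 CPM and a 2 h ratio of 0.10.

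**Figure D3:**
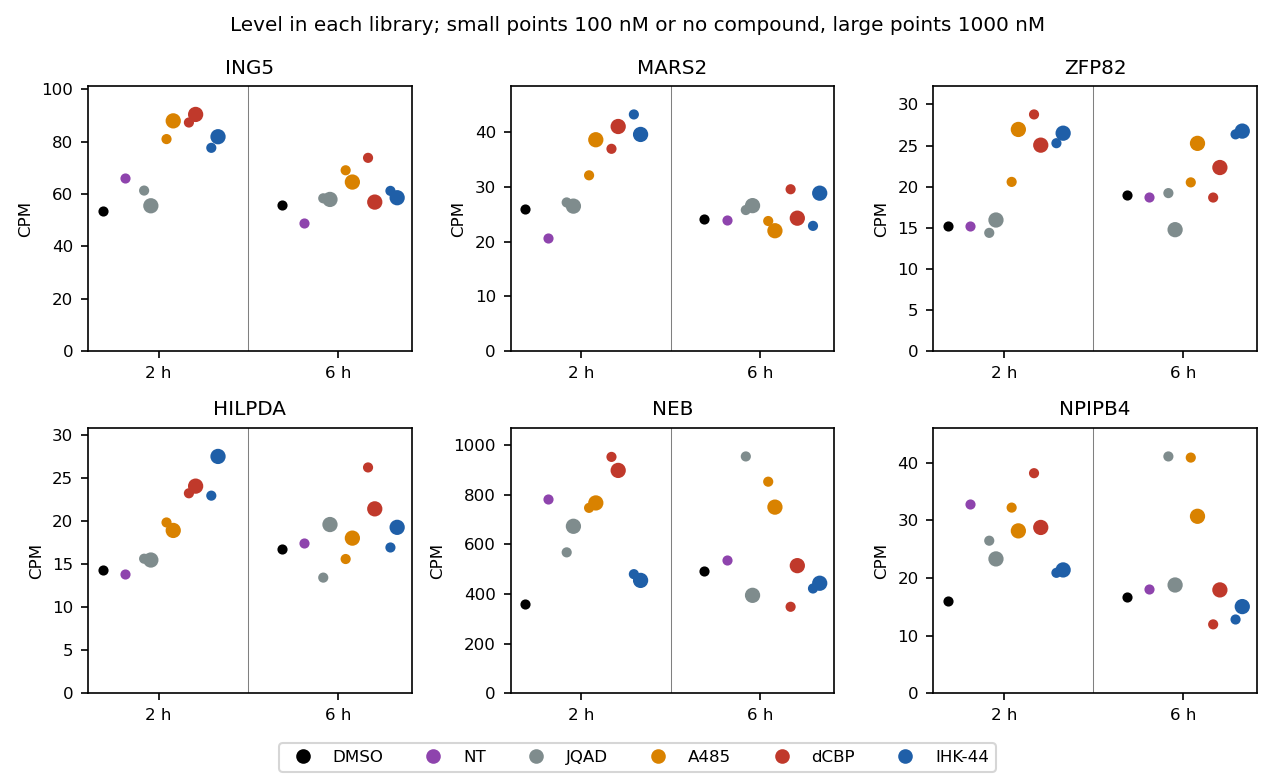
Level in CPM of 6 of the genes in each of the 20 libraries, grouped by time and coloured by condition, with every axis starting at 0. For ING5, MARS2, ZFP82 and HILPDA the dCBP and IHK-44 points of 2 h lie above both controls, while for NEB and NPIPB4 the NT point of 2 h lies among or above them.

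Genes of the cilium, the flagellum or the testis numbered 6. DNHD1, a dynein heavy chain domain protein of the sperm flagellum, was at 7.56 CPM in DMSO and 16.3 CPM in NT at 2 h, between IHK-44 (11.3 and 12.2 CPM) and dCBP (21.6 and 20.0 CPM). DNAH1, an inner arm dynein heavy chain, was at 1.74 CPM in DMSO, 3.50 CPM in NT and 2.38 to 4.73 CPM in the 4. TEX9, a testis-expressed gene, was at 1.3, 1.96 and 2.35 to 3.31 CPM, and C2orf16, listed by RefSeq as SPATA31H1, at 2.94, 4.87 and 5.40 to 7.73 CPM. For the dyneins NT overlapped the treated range, while for TEX9 and C2orf16 all 4 treated libraries lay above NT. TP53TG5 lay at 1.63, 2.41 and 2.40 to 3.45 CPM. On the opposite strand, TEX9 overlaps RFX7 (mean 72.2 CPM, 2 h ratio −0.06) and MNS1 (5.79 CPM, 0.28). TP53TG5 overlaps SYS1 (62.9 CPM, 0.09) in the same way. The part of these overlaps in the levels was not tested.

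UTP14C had the largest ratio of the set, 2.57 on average. It is a retrotransposed copy of a ribosome biogenesis gene, and it lies on the same strand as and overlaps ALG11, a mannosyltransferase of the glycosylation pathway. Its level was 2.13 CPM in DMSO at 2 h, 8.42 CPM in NT, 13.8 and 27.6 CPM in dCBP and 16.5 and 15.1 CPM in IHK-44. It was also 17.5 and 16.4 CPM in JQAD and 14.7 and 30.7 CPM in A485. At 6 h it ran from 2.40 CPM (1000 nM dCBP) and 3.19 CPM (1000 nM JQAD) to 17.3 CPM (100 nM JQAD), beside 13.9 in DMSO, so low values were not confined to DMSO.

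The sum of UTP14C and ALG11 stayed within 71.0 to 86.1 CPM in all 20 libraries. The mean 2 h ratio of the sum was 0.09. The share of the sum given to UTP14C was 3.00% in DMSO at 2 h (95% Wilson interval 2.20% to 4.18%, counting error only) and 38.1% in 1000 nM A485 at 2 h (35.4% to 40.8%). What varied was thus the division of expected counts between the overlapping genes. Whether the RNA or the assignment of reads varied was not tested, and the interval does not cover the error of that assignment. The level of UTP14C is therefore uncertain.

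**Figure D4:**
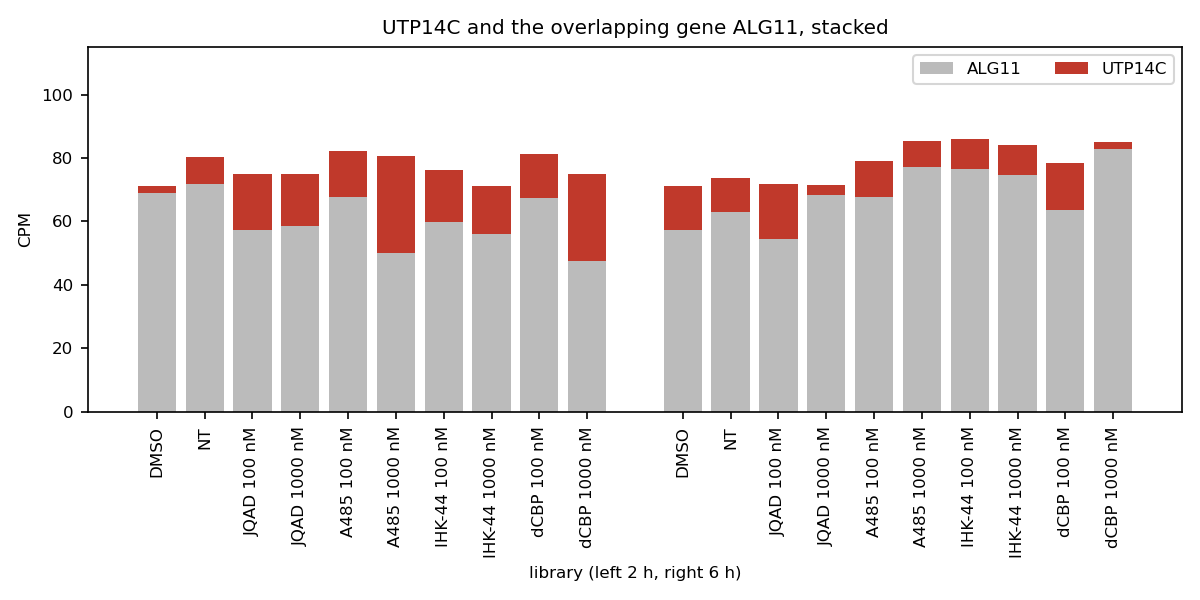
Stacked level in CPM of ALG11 (grey) and UTP14C (red) in each of the 20 libraries, 2 h on the left and 6 h on the right. The height of the stack stays between 71.0 and 86.1 CPM, while the red part runs from 2.13 to 30.7 CPM.

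Members of recently duplicated families numbered 5, with a median ratio of dCBP and IHK-44 to NT of −0.17 and of NT to DMSO of 0.83. NPIPB4, of the nuclear pore complex interacting protein family on chromosome 16, was at 16.1 CPM in DMSO, 32.8 CPM in NT, 38.2 and 28.8 CPM in dCBP and 20.9 and 21.4 CPM in IHK-44. NPIPA3, of the same chromosome, was at 1.66 CPM in DMSO, 3.75 CPM in NT and 2.62 to 3.74 CPM in the 4. POTEE, of a family with ankyrin and actin-like parts, was at 1.42, 3.67 and 2.12 to 5.35 CPM. All 3 therefore had NT within or above the treated range.

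Near-identical copies share reads, so sums over families were also taken. The 11 NPIPB genes summed to 61.4 CPM in DMSO and 113 CPM in NT at 2 h, and to between 65.9 and 125 CPM in the 4 treated libraries, a mean ratio to NT of −0.27. For 6 NPIPA genes that mean was −0.19, for 13 POTE genes −0.15 and for 11 TBC1D3 genes, which include TBC1D3E, −0.04. SERHL2, a serine hydrolase-like gene with a close copy, was at 1.17 CPM in DMSO, 2.44 CPM in NT and 1.75 to 3.64 CPM in the 4. None of these family values was above NT on average except that of SERHL2 alone, 0.05, and of TBC1D3E alone, 0.11.

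Enzymes, transporters and signals made up 7 genes. HILPDA, a hypoxia-inducible protein that blocks lipolysis on lipid droplets, had 14.4 CPM in DMSO and 13.9 CPM in NT at 2 h, 23.3 and 24.1 CPM in dCBP and 23.0 and 27.5 CPM in IHK-44. It lay just under the 6 h limit, with 17.0 to 26.3 CPM beside 16.7 in DMSO and 17.4 in NT. The 2 h values of the 4 were above both controls without overlap. GALNT4, which starts mucin-type O-glycosylation, was at 3.44 CPM in DMSO and 4.26 CPM in NT, and at 7.0 to 9.57 CPM in the 4. At 6 h the 4 lay between 6.23 and 9.28 CPM, beside 6.45 in DMSO and 7.52 in NT. The lower ratio of GALNT4 at 6 h thus came with higher controls, and the treated ranges of the 2 times overlapped. GALNT4 overlaps POC1B, and the 2 genes summed had a mean 2 h ratio of 0.41, beside 1.04 for GALNT4 alone, and of 0.10 to NT.

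SLC26A1, a sulfate and oxalate exchanger, was at 6.06 CPM in DMSO, 6.68 CPM in NT and 9.06 to 11.9 CPM in the 4, and overlaps IDUA on the opposite strand, whose own 2 h ratio was 0.53. NAPRT, which makes NAD from nicotinic acid, was at 3.18, 6.18 and 4.74 to 8.43 CPM. BMP8A, a secreted ligand of the TGF-beta family, was at 4.87, 7.60 and 7.27 to 12.5 CPM, with dCBP high (12.0 and 12.5 CPM) and IHK-44 close to NT. Summed with its near copy BMP8B, BMP8A had a ratio of 0.24 and of 0.04 to NT. NAA80, the enzyme that acetylates the N terminus of actin, was at 1.20, 2.37 and 2.28 to 2.70 CPM. SLC6A16, an orphan transporter, was at 1.68, 3.19 and 2.63 to 4.73 CPM, so NT lay within the treated range of both. NAA80 overlaps HYAL3 on the same strand. Summed, these 2 genes had a ratio of 0.23 and of 0.02 to NT, beside a ratio of 0.67 for NAA80 alone. SLC6A16 overlaps CD37, whose own 2 h ratio was 0.74.

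Little described genes numbered 4. MROH6, a HEAT-repeat gene that neighbours NAPRT on chromosome 8, was at 3.18 CPM in DMSO, 4.56 CPM in NT and 5.01 to 8.80 CPM in the 4. SPRYD4 was at 21.7, 25.4 and 27.8 to 39.5 CPM, ANKRD49 at 5.82, 7.68 and 8.72 to 10.2 CPM and TMEM234 at 10.6, 15.8 and 13.9 to 20.1 CPM. All but TMEM234 had the 4 treated libraries above both controls, as did 19 of the 34 genes in all (37.7% of all genes had all 4 above NT). On the opposite strand, ANKRD49 overlaps MRE11 (mean 34.6 CPM, 2 h ratio 0.16) and TMEM234 overlaps DCDC2B (1.05 CPM, 0.24). SPRYD4 overlaps GLS2 (0.008 CPM) in the same way.

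dCBP and IHK-44 differed within the set. The mean ratio of dCBP at 2 h had a median of 0.84 and that of IHK-44 of 0.63. Both dCBP libraries lay above both IHK-44 libraries in 17 of the 34 genes (17.5% of all genes), among them NEB, DNHD1, BMP8A and XRCC2, and the reverse held for SCO2 alone (20.6% of all genes). These libraries chose the genes, so the difference is a description. The median step from 100 to 1000 nM was 0.04 for dCBP and 0.11 for IHK-44.

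The libraries of A485, JQAD and NT entered the rule only through the mean level over the 20 libraries, and not through a ratio. A few genes lie near that limit of 2 CPM, such as SERHL2 with a mean of 2.00 CPM. A485 exceeded NT at 2 h by more than 0.3 at both doses in 10 of the 34 genes, against 5.21% of all genes. The 10 were GALNT4, HILPDA, MARS2, MROH6, PDP2, SCO2, SLC26A1, SNRNP35, UTP14C and ZFP82. The median of the 34 was 0.17 for A485 and −0.19 for JQAD, beside 0.04 and −0.02 for all genes. JQAD exceeded NT by more than 0.3 at both doses in 3 of the 34, GALNT4, MARS2 and UTP14C, against 0.6% of all genes. UTP14C with ALG11 summed to 74.96 and 74.84 CPM in JQAD and 82.2 and 80.7 CPM in A485 (100 and 1000 nM), beside 80.3 in NT. GALNT4 with POC1B summed to 18.3 and 20.5 CPM in JQAD and 17.56 and 17.59 CPM in A485, beside 17.3. In A485 the sums of SCO2 with TYMP and of SLC26A1 with IDUA stayed above NT. The counts for A485 and JQAD thus include genes whose excess was smaller or absent in such sums. The counts for A485, JQAD, dCBP and IHK-44 share the NT library.

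Low genes vary more between single libraries, and 30 of the 34 lay in the lowest 40% of levels. Among those genes the share with A485 above NT by more than 0.3 at both doses was 8.83%, and 9 of the 30 members there met it. The corresponding share for NT above DMSO by more than 0.3 was 14.7%, met by 20 of the 30, and that for all 4 dCBP and IHK-44 libraries above NT by more than 0.3 was 9.87%, met by 9.

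**Figure D5:**
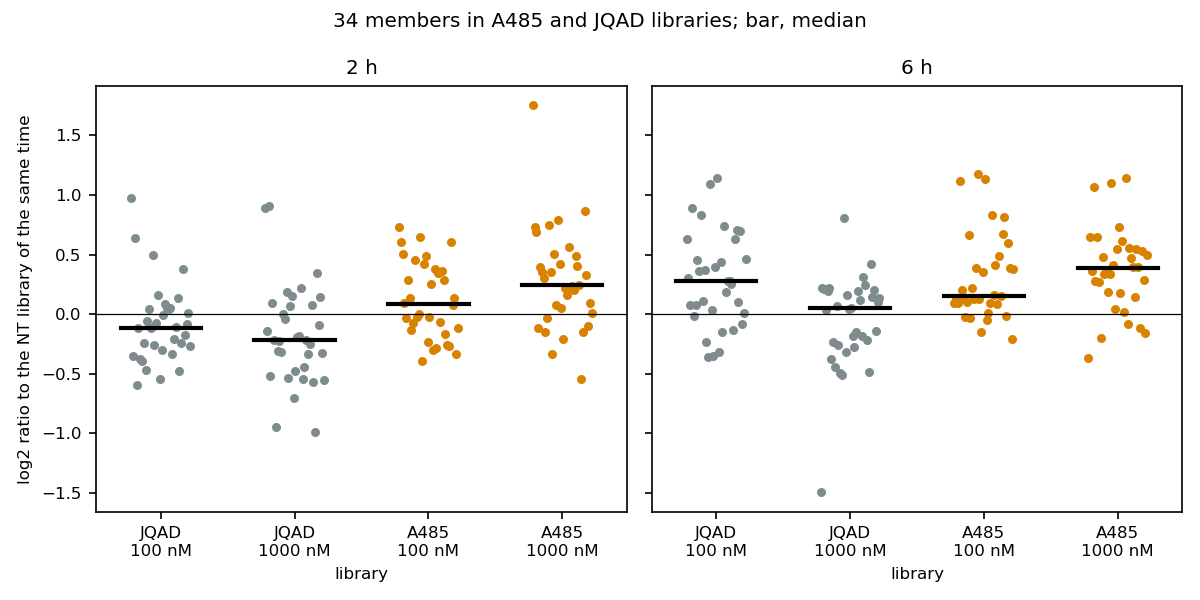
Log2 ratio of each of the 34 genes (points) to the NT library of the same time in the 4 libraries of A485 and JQAD at 2 h (left) and 6 h (right), with the median as a bar. At 2 h the JQAD medians lie under 0 and those of A485 over it, and at 6 h all 4 lie over 0.

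A direct test compared A485 with JQAD at 2 h in a fit of the 10 libraries of A485, JQAD and NT, in which the 2 doses of a compound served as its replicates. The p-values measure the spread between these libraries, doses included, which may be technical. With edgeR's quasi-likelihood test no gene had an adjusted p under 0.05, among the 34 or among all 13245 tested (0% called higher, 0% lower), and the smallest adjusted p in the 34 was 0.343. At an unadjusted p under 0.05, 10 of the 34 were higher in A485, against 7.23% of all genes, and 0 were lower, against 3.53%. In the lowest 40% of levels 8 of the 30 were higher in this way, against 10.3%. The fitted log2 change was above 0 in 28 of the 34 (50.9% of all genes), with a median of 0.29 beside 0.01. Both A485 libraries lay above both JQAD libraries in 21 of the 34 at 2 h (39.7% of all genes) and in 13 at 6 h (38.4%). DESeq2 called 11 genes of all those tested and 0 of the 34, and had 6 of the 34 higher at an unadjusted p under 0.05. Without the 1000 nM A485 library of 2 h the edgeR count of 10 became 4, and without the 1000 nM JQAD library of 2 h it became 6. In simulated data with a log2 change of 1, the fit called 91% of 200 changed genes for this comparison. The simulated counts had the same spread for all genes and no difference between doses, and their change was larger than the median of 0.29 here. The 91% is therefore not the share to be found among the 34 genes.

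The largest fitted differences between A485 and JQAD at 2 h were those of SCO2 (1.05 ± 0.23 SE), NAPRT (0.98 ± 0.34) and MROH6 (0.88 ± 0.24). ING5 had the smallest unadjusted p, 0.001, with a difference of 0.47 ± 0.10 SE and an adjusted p of 0.343 in edgeR's test. Its levels at 2 h were 80.9 and 87.9 CPM in A485 and 61.3 and 55.5 CPM in JQAD, so the 2 compounds did not overlap. MARS2 had 32.1 and 38.5 CPM in A485 and 27.1 and 26.5 CPM in JQAD, and ZFP82 had 20.6 and 27.0 CPM against 14.4 and 16 CPM. For these 3 genes the difference between the means of the compounds is larger than the gap between the doses of either, but it did not pass the adjustment over all genes.

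In 12 of the 34 genes the 4 dCBP and IHK-44 libraries and both A485 libraries of 2 h all lay above DMSO, NT and both JQAD libraries (15.5% of all genes). They were HILPDA, ING5, MARS2, MROH6, MTFR2, PDP2, POLR3G, SCO2, SLC26A1, SNRNP35, SPRYD4 and ZFP82. The rule had already placed the 4 dCBP and IHK-44 libraries of 2 h above DMSO in all 34 genes. The 15.5% of all genes is not limited in this way, so the count of 12 is not compared with it. None of the duplicated-family genes and neither dynein gene was among the 12, nor was NEB. This order is a description and does not mark the 12 genes as a separate group.

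Whether a higher level faded by 6 h could also be asked in A485. Against NT at 6 h, A485 exceeded by more than 0.3 at both doses in 13 of the 34 (13.7% of all genes), with a median of 0.31 beside 0.09 for all genes. The median without any control, A485 at 2 h minus A485 at 6 h, was 0.03, beside −0.03 for all genes, while for dCBP and IHK-44, whose ratios at both times chose the genes, it was 0.25 beside −0.10. In the fit, A485 against JQAD at 6 h gave 0 of the 34 with an adjusted p under 0.05 by edgeR (0% of all genes higher, 0.00755% lower), 1 higher at an unadjusted p under 0.05 against 12.1% of all genes, and 1 lower, MARS2, against 15.9%. SNRNP35 was the 1 higher gene, by 0.88 ± 0.24 SE with an adjusted p of 0.0804. Without the 100 nM JQAD library of 6 h, 8 of the 34 were higher at an unadjusted p under 0.05. DESeq2 called 867 genes of all those tested at 6 h and 0 of the 34.

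The difference between the times, tested as an interaction, gave 0 of the 34 by edgeR (0% of all genes in each direction) and 5 higher at an unadjusted p under 0.05, against 5.54% of all genes. The 5 were ING5, MARS2, MROH6, SCO2 and SLC26A1, the largest difference being 0.98 ± 0.33 SE for SCO2. The interaction also contains the change of JQAD. JQAD at 2 h against 6 h was −0.71 ± 0.24 SE for SCO2 and −0.43 ± 0.19 SE for SLC26A1. For ING5, MARS2 and MROH6 it was 0.02, 0.04 and 0.22. In A485, SCO2 was at 6.94 and 7.67 CPM at 2 h and at 5.07 and 7.64 CPM at 6 h (100 and 1000 nM). In the interaction MARS2 differed by 0.64 ± 0.18 SE. Its adjusted p was 0.635, and without the 100 nM A485 library of 6 h it was 0.0491, the 1 setting in which edgeR called any of the 34. Without the 1000 nM A485 or the 1000 nM JQAD library of 2 h the count of 5 became 3 or 2. DESeq2 called 2 genes of all those tested and 0 of the 34, with 1 of the 34 higher at an unadjusted p under 0.05. In the simulated data, with the limits given above, 47.5% of changed genes were called for this interaction. JQAD at 2 h against 6 h gave 0 of the 34 (0% of all genes in each direction), with 2 higher (2.2%) and 3 lower (4.84%) at an unadjusted p under 0.05. DESeq2 called 13 genes of all those tested for that comparison and 0 of the 34.

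Transcript length did not set the genes apart. Their median transcript length as deposited was 3115 bases, beside 3370 for all genes, and 5 equal groups of all genes by length held 8, 6, 7, 7 and 6 of them from shortest to longest. The range was wide, from 544 bases for CHCHD5 to 24918 for NEB. The span on the chromosome was shorter, with a median of 14890 bases beside 32465, and ran from 1673 bases for SAP25 to 249138 for NEB. Levels were low, with a median of 7.32 CPM beside 40.4, and 21 of the 34 lay in the lowest of 5 equal groups by level, where the SD across genes of the NT ratio at 2 h was 0.29, beside 0.13 in the highest. In DMSO at 2 h the median gene rested on 55.7 expected counts.

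Length did go with the difference between the 2 control libraries of 2 h. The median ratio of NT to DMSO was −0.04 in the shortest of the 5 length groups and 0.09 in the longest. The 8 members longer than 5000 bases had a median of 0.64 and the other 26 of 0.37. The part of length in these ratios was not tested.

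Promoter sequence was matched for 26 of the 34 genes in the RefSeq table of GRCh38.p14, which gives 250 bases before and 50 after each start. CpG dinucleotides numbered 21.5 at the median, beside 27 over 9566 expressed genes, and the ratio of observed to expected CpG was 0.77, beside 0.85. GC content was 59.2%, beside 65.7%. The spread was the main feature, from 0 CpG in C2orf16, 1 in TP53TG5 and 2 in NEB, DNAH1 and UTP14C to 47 in BMP8A. Of the 3 promoters given here, BMP8A and C2orf16 are the extremes of this range and ING5 is the gene with the highest CPM after NEB, and each is given as the 250 bases before the start, 5′ to 3′ on the plus strand with CpG in capitals. BMP8A (chr1:39491386-39491635, GRCh38.p14) and ING5 (chr2:241686770-241687019) each held 35 CpG in these bases, and C2orf16 (chr2:27537136-27537385) held 0.
BMP8A: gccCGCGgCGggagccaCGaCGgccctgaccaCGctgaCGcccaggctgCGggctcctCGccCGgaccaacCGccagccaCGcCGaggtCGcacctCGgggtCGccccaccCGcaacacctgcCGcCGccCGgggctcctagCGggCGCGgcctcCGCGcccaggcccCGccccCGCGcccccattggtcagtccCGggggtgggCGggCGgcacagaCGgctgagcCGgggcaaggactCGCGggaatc
ING5: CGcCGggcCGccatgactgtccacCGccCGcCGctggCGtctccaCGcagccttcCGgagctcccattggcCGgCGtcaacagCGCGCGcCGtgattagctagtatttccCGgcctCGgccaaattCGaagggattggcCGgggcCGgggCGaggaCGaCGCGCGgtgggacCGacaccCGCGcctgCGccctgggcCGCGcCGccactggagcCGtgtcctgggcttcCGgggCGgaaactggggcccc
C2orf16: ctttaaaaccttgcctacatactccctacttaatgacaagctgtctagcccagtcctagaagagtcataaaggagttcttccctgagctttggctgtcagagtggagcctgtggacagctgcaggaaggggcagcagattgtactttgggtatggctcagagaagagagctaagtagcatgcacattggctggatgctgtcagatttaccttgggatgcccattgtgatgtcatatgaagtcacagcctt

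Short motifs were searched on both strands of the 300 bases. The E-box CACGTG, which bHLH factors such as MYC bind, was in 7 of the 26 promoters, or 26.9%, beside 10.4% of all. Those were DNHD1, MARS2, PDP2, SAP25, SLC6A16, SPRYD4 and TBC1D3E. The GC box GGGCGG was in 53.8%, beside 71.4%, CCAAT in 42.3%, beside 37.4%, the ETS motif CCGGAAG in 19.2%, beside 20.6%, and the TATA box TATAAA in 2 of 26 (7.69%, beside 5.39%). AP-1 (TGACTCA) was in 2 (7.69%, beside 2.49%), CRE (TGACGTCA) in 1 (3.85%, beside 3.47%) and the NRF1 motif in 2, MARS2 and SLC6A16 (7.69%, beside 2.50%). A match is a description of the letters and not evidence of binding.

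The 34 genes included 0 of the 500 expressed genes (4.35% of 11497) on 12 function lists, which range from immediate early, heat shock and elongation factor genes to ribosomal proteins and acetyltransferases. With 34 genes, 0 is close to that share. Of 35 expressed genes on the immediate early list only EGR1 met the 2 h conditions, and the median of that list was −0.90 at 2 h. For P-TEFb, BET and elongation factors 2 of 29 expressed genes met them, HEXIM1 and SERTAD1. Of all 11497 genes 4.01% met the 2 h conditions, and in lists this short these counts are close to that share. Other lists had similar counts, such as 5 of 101 for cullin adaptors and ubiquitin ligases. The ribosomal proteins had 3 of 76, and the growth brakes and p53-type targets 2 of 24. EGR1, HEXIM1 and SERTAD1 met the conditions for 2 h and not the one for 6 h.

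The limits decided membership for some genes. Just inside the 2 h limit were TMEM234 (0.60), CHCHD5 (0.60) and TP53TG5 (0.60), and ZSCAN32 (0.59) and MRPS30 (0.59) lay just outside. Just inside the 6 h limit lay SNRNP35 (0.30), HILPDA (0.29) and NAPRT (0.29), and just outside lay KANTR (0.31), HRNR (0.31) and NPIPB6 (0.32). Since 1 library stands for each condition, the genes on either side of these limits are not distinguished by the data.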

How the data were processed

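RNA-seq libraries of RH4 cells were analysed, 20 of the 32 samples in the series, and the ChIP-seq and ChRO-seq samples were not analysed here. STAR 2.5.3a, RSEM 1.3.3 and the build hg38 are named in the submitters' processing notes, and whether reads were counted by strand is not given in the sources used here. The authors deposited expected counts, TPM, FPKM and library-scaled counts (CPM) for coding genes, per the file headers. The CPM values as deposited sum to the same total in every library over the coding rows, while the authors' TPM and FPKM cover all quantified genes.

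The members and lists were chosen with earlier results of these data known. Ratios used log2(CPM + 1), which understates the change of low genes. After rounding, the expected counts went into edgeR 4.0.16 (R 4.3.3) and its quasi-likelihood test, with TMM scaling, filterByExpr and Benjamini-Hochberg adjustment over 13245 genes, in 10 libraries that entered the rule only through the mean level (1 level per compound and time, 4 residual degrees of freedom). DESeq2 1.42.0 was an alternative. The fit was tested on simulated data. Transcript lengths come from the files, and spans and promoters from RefSeq GRCh38.p14. Genes described in full were the 20 with the largest 2 h ratio, the 6 with the lowest 6 h ratio and the 6 with the highest mean FPKM, 25 in all. The other 9 members were named, and role groups formed, after their values were seen. The comparison with the lowest 40% of genes by level was added after seeing the data. A further gene just outside the 2 h limit is not reported here.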

Additional observations from a re-analysis of the deposited data

How the results depend on the processing

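With 1 library per condition, ratios of single genes have no replicate check, and genes under about 5 CPM rest on few counts. Pairing by replicate was not possible because each condition has 1 library and the labels give no replicate numbers, but libraries could be matched by dose. A fit with dose as a block called 0 of the members in each of the 4 comparisons, as without it. The members by the rule numbered 17 with NT as the control, 13 with the mean of DMSO and NT, 22 with a mean of at least 5 CPM, 60 with no minimum and 4 on TPM (main 34), and 29 to 53 when 1 library was left out. The median of the members against NT at 2 h turned from 0.32 to −0.12 on TPM, while that of all genes went from 0.06 to −0.38. For all genes called, A485 against JQAD at 2 h gave 11 with DESeq2 and 0 to 6 when 1 library was left out (main 0). At 6 h it gave 961 with no filter on low counts, 867 with DESeq2, 2825 with JQAD and NT pooled and 0 to 3083 when 1 library was left out (main 1). The interaction gave 2 with DESeq2, 1 with JQAD and NT pooled and 0 to 661 when 1 library was left out (main 0). JQAD at 2 h against 6 h gave 13 with DESeq2 and 51 with JQAD and NT pooled (main 0). Members called remained 0 in these settings, except for the interaction, where the range when 1 library was left out was 0 to 1 (MARS2, without 100 nM A485 at 6 h). The causes were not tested. The median change of the members ran from −0.02 to 0.28 at 6 h and from −0.29 to 0.12 for JQAD at 2 h against 6 h when 1 library was left out, so the sign of these medians depends on single libraries. The other values that answer a comparison, 174 with these, moved by less than their spread or lay within 1.5 times of the main count. A similar count can hold other genes: of the 40 found with the median gene at 0 in each library 18 were among the 34, and of the 42 with a pseudocount of 0.1, 27.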
